A study of Mus musculus with 3 samples.

Results

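The genes described here are the potassium channel genes of the mouse, taken as all symbols that begin with Kcn and a letter, without Kcnj3, Kcnj6, Kcnj9 and the antisense names ending in os or ot1. Of 32531 genes listed in the count files, 93 met this rule. They comprise 74 pore-forming subunits, 17 auxiliary or regulatory subunits and 2 RNAs from the strand opposite Kcnmb4, Kcnmb4os1 and Kcnmb4os2. RNA bound to tagged ribosomes was captured from the cortex-amygdala transition zone, where ventral cortex meets the amygdala, of adult Lypd1-EGFP-L10a mice of line OI82, which were untreated controls. In this line an EGFP fusion of ribosomal protein L10a is driven by Lypd1 regulatory DNA, and polysomes were pulled down with antibodies to EGFP (translating ribosome affinity purification). There was 1 group with 3 immunopurified libraries, replicates 1, 2 and 3. The series' design names 3 mice, without saying which animal or animals each library holds. Unpurified tissue was not analysed here. The values describe captured RNA alone, in which fewer cells of a type cannot be told apart from less RNA per cell.

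Levels are CPM, each gene's count relative to all counts assigned to genes in its library. These totals were 18526251, 24690301 and 8668527 in replicates 1, 2 and 3. Where a count is 0, a level of up to 0.162, 0.122 or 0.346 CPM is possible in replicate 1, 2 or 3, respectively, since 3 counts amount to that much (counting error only). Markers of neurons were detected for 14 of 14 genes, with a summed level of 10755 to 19441 CPM over the libraries, and those of astrocytes for 12 of 12, with a summed level of 1466 to 2468 CPM. The libraries differed in other ways. Summed nuclear RNAs such as Malat1 and Meg3 were lowest in replicate 2 (31856 CPM) and highest in replicate 3 (142557 CPM), while astrocyte, oligodendrocyte, GABAergic and cholinergic marker sums were highest in replicate 1. Xist, transcribed from the inactive X chromosome, measured 47.8, 1.26 and 78.4 CPM and was called as varying (edgeR goodness of fit, adjusted p = 0.00018), which sets replicate 2 apart. The part of these differences in the results below was not tested, except where a value is given.

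Potassium channels let potassium leave the cell and so set the resting potential, end the action potential and space the spikes of a neuron. Voltage-gated channels open on depolarization, calcium- and sodium-activated channels open on ion entry, inward rectifiers and tandem-pore channels carry the resting conductance, and auxiliary subunits change the gating and traffic of the pore. All pore-forming subunits share a short signature that lines the narrowest part of the pore, the selectivity filter. Neurons of cortex and amygdala are known to use A-type currents of Kcnd channels in dendrites, the M-current of Kcnq channels near the axon's start and Kcna channels along the axon.

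The signature was searched in the coding sequence of each gene (the transcript with the longest coding sequence in GENCODE M21, GRCm38) as the in-frame letters ACNNTNGGNTNNGGN on the coding strand. It was found in 61 of 74 pore-forming members and in 0 of 17 auxiliary or regulatory members, against 0.867% of 21562 coding genes. Among tandem-pore members, whose subunits carry a pair of pore loops, 11 of 14 held at least 2 copies. It was missing in these letters from 7 of the 40 voltage-gated members, all of the Kcnh family, from Kcnn1, Kcnn2, Kcnn3, Kcnj14, Kcnk1 and Kcnk7. That says only that these exact letters are not in the coding sequences. The stretches below come from members of each pore-forming class and from Kcnk10, the member whose level varied most; capitals mark the 15 bases of the signature, and 15 coding bases are shown on either side. All are exonic and coding; for Kcnk2 and Kcnk10 the stretch runs over an exon junction, so that its coordinates span an intron.
Kcna2, chr3:107105209-107105253, plus strand: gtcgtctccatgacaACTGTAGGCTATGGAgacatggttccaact
Kcnc1, chr7:46427958-46428002, plus strand: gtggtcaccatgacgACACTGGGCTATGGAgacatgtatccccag
Kcnma1, chr14:23528398-23528442, minus strand: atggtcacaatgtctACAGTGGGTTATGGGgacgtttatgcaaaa
Kcnj4, chr15:79485352-79485396, minus strand: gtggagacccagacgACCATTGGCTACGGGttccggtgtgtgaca
Kcnk2, first pore, chr1:189258876-189295615, minus strand: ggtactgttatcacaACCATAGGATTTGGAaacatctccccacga
Kcnk2, second pore, chr1:189243025-189256610, minus strand: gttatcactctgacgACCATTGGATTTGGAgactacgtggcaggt
Kcnk10, first pore, chr12:98490043-98496214, minus strand: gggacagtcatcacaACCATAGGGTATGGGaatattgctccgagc
Kcnk10, second pore, chr12:98436333-98440634, minus strand: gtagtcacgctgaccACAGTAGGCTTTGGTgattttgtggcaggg

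Of the 93 members 58 were detected (no library under 1 CPM), against 39.3% of all listed genes and 57.5% of 20384 protein-coding genes. Together the members took 0.319%, 0.314% and 0.372% of gene counts in replicates 1, 2 and 3. Means reached 100 CPM or more for 10 members, lay from 10 to under 100 CPM for 37 and from 1 to under 10 CPM for 21. A further 18 had a mean above 0 and under 1 CPM. The remaining 7, namely Kcna7, Kcne1, Kcne3, Kcnj1, Kcnk15, Kcnk16 and Kcnv2, had 0 counts in every library. The median of the detected members was 31.3 ± 1.87 CPM (SD, n = 3, as for all errors below), and the median of all detected genes was 25.2 ± 1.20 CPM. Per kb of annotated exons the order was the other way, with 5.40 ± 0.824 for the members and 5.80 ± 0.319 CPM per kb for all detected genes.

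The voltage-gated alpha subunits took 64.1 ± 2.75% of the members' counts, the auxiliary subunits 14.5 ± 2.54%, the calcium- and sodium-activated channels 11.4 ± 2.22%, the inward rectifiers 5.54 ± 0.825% and the tandem-pore channels 4.44 ± 0.356%. By subfamily, Kcna genes took the most counts, at 17.2 ± 2.93%. Detection was most complete among voltage-gated subunits (30 of 40). It was 10 of 17 for auxiliary subunits, 5 of 8 for calcium- and sodium-activated channels, 6 of 12 for inward rectifiers and 6 of 14 for tandem-pore channels.

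**Figure D1:**
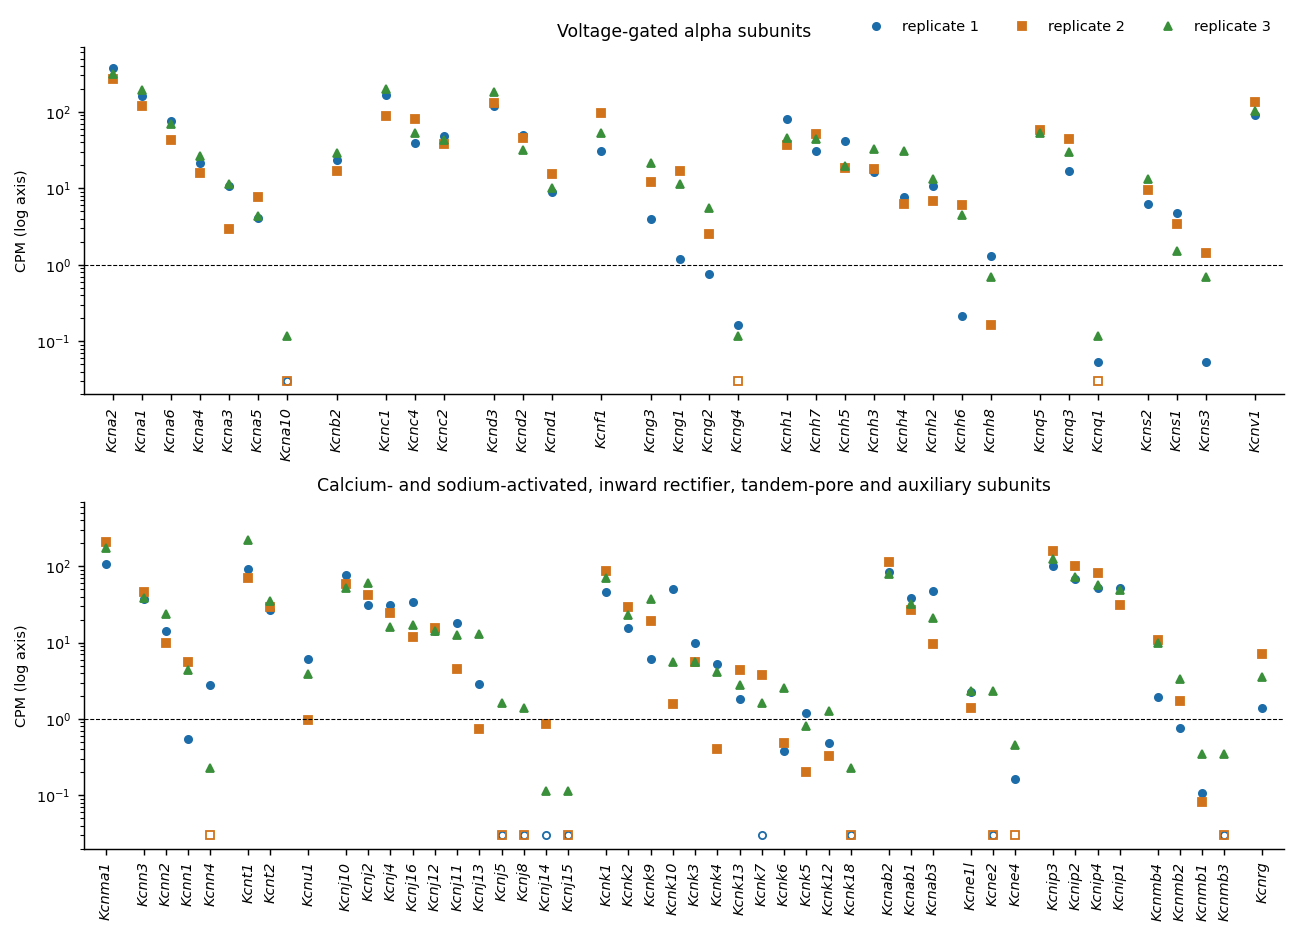
Level of members with a count, in CPM on a log axis, in replicates 1, 2 and 3. Genes are grouped by subfamily; the dashed line marks 1 CPM and open symbols at the bottom stand for 0 counts. Kcna2 lies near the top, at 273 to 377 CPM, and Kcnk10 shows a wide gap between replicate 1 and the other libraries.

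Transcripts of the Shaker-type Kcna family, low-threshold channels of axons and their initial segments, were led by Kcna2 and Kcna1. Kcna2 measured 377, 273 and 311 CPM in replicates 1, 2 and 3, and Kcna1 163.6, 120.01 and 193 CPM. Kcna6, another axonal member, measured 75.8, 43.2 and 69.4 CPM. Of its exon bases, 39.6% overlap Gm26673 on the opposite strand. Kcna1, Kcna2 and Kcna6 were each lowest in replicate 2. The libraries of Kcna2 lay above those of Kcna1, which lay above those of Kcna6, with no overlap of CPM. Per kb the order of the first pair turned: Kcna1 had 33.3 ± 7.73 and Kcna2 26.9 ± 4.41 CPM per kb, a log2 difference (Kcna2 minus Kcna1) of -0.29 ± 0.29 that was about its own spread. With coding length in place of exon length it was 1.01 ± 0.295, so the order of this pair depends on the 11906 exon bases annotated for Kcna2. Kcna4, which gives a fast-inactivating current, had a mean of 21.1 ± 5.14 CPM and Kcna3, known also from lymphocytes, 10.8, 2.96 and 11.4 CPM. The family thus ran from Kcna1 and Kcna2 down to Kcna5 at 5.38 ± 1.97 CPM, while Kcna10 had 1 count in all. Among detected Kcna genes, 5 of 6 were lowest in replicate 2 (4 of 6 with DESeq2 size factors), against 36.3% of all detected genes (31.3% with DESeq2 size factors).

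Kcnb2, a delayed rectifier, measured 23.6, 16.7 and 28.6 CPM in replicates 1, 2 and 3. It was lowest in replicate 2 and highest in replicate 3. Subunits that form no channel alone but join Kcnb channels and alter their gating were also found. Kcnv1 measured 89.9, 135 and 102 CPM and was among the most abundant members per kb, at 23.8 ± 5.14 CPM per kb. Kcnf1 measured 30.8, 96.1 and 52.5 CPM. Kcng3 measured 3.99, 12.03 and 21.5 CPM, and Kcng1 1.19, 16.7 and 11.5 CPM. These 4 modifier genes were lowest in replicate 1, as were 32.3% of all detected genes. Of the Kcns genes, which are also modifiers, Kcns2 was lowest in replicate 1 too. Kcns1 went the other way, being highest in replicate 1 and lowest in replicate 3. Kcns2 and Kcns1 had means of 9.65 ± 3.50 and 3.23 ± 1.64 CPM, and Kcng2, Kcng4, Kcns3 and Kcnv2 were not detected.

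The Kcnc genes encode high-threshold channels that repolarize fast and are best known from fast-spiking cells. Kcnc1 measured 169, 89.5 and 202 CPM in replicates 1, 2 and 3, and Kcnc4, whose current inactivates, 39.5, 80.3 and 52.4 CPM. Kcnc1 was lowest in replicate 2, where Kcnc4 was highest. Kcnc2 measured 48.8, 38.3 and 43.03 CPM. Kcnc1 exceeded Kcnc2 in every library, by a log2 difference per kb of 1.33 ± 0.504, and Kcnc1 minus Kcnc4 was 0.033 ± 1.07. That near-equality rests on exon length, since the latter difference was 1.48 with coding length, and by CPM Kcnc1 lay above Kcnc4 with no overlap. Beside these, Pvalb, the marker that defines most fast-spiking interneurons, lay at 0.108, 0.648 and 0 CPM, and the fast-spiking marker list as a whole (5 of 8 detected) summed to 111, 54.8 and 72.0 CPM.

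Kcnd genes form the A-type channels of dendrites. Kcnd3 measured 119, 129 and 184 CPM in replicates 1, 2 and 3 and Kcnd2 49.3, 46.2 and 32.1 CPM, so that Kcnd3 was the higher in every library with no overlap. Kcnd1 had a mean of 11.4 ± 3.37 CPM. The log2 difference per kb, Kcnd2 minus Kcnd3, was -0.85 ± 0.66. The cytosolic partners of these channels, the Kcnip calcium-sensor proteins, were among the most abundant members. Kcnip3, which is also known as a calcium-dependent repressor of transcription, measured 102, 159 and 124 CPM. Its mean level per kb was the highest of all members, 36.2 ± 8.14 CPM per kb, above 92.4% of detected genes in the mean over libraries. Kcna1 was higher per kb than Kcnip3 in replicates 1 and 3, at 34.2 against 28.7 and 40.5 against 34.9 CPM per kb. Kcnip2 measured 67.2, 101 and 72.3 CPM and Kcnip4 52.2, 81.2 and 56.1 CPM. Kcnip2, Kcnip3 and Kcnip4 were each highest in replicate 2, under library totals, TMM and DESeq2 scaling alike. Of all detected genes 31.1%, 36.1% and 36.5% were highest there under these scalings. Kcnip4 minus Kcnip2 was -0.41 ± 0.030 per kb on the log2 scale. Kcnip1 went another way, with 51.4, 30.7 and 48.9 CPM.

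The Kcnq genes carry the M-current, which muscarinic receptors close. Kcnq3 measured 17.1, 44.8 and 30.1 CPM in replicates 1, 2 and 3, and Kcnq5 55.7, 57.3 and 53.4 CPM. Kcnq5 was the steadiest of all detected members, its highest library 1.07 times its lowest. Kcnq5 lay above Kcnq3 in every library, and Kcnq3 minus Kcnq5 per kb was -1.84 ± 0.65 on the log2 scale. Kcnq1, known from the heart, had 2 counts in all.

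In the ether-a-go-go family (Kcnh), 6 of 8 genes were detected. Kcnh1 measured 81.4, 36.5 and 45.6 CPM and its closest relative Kcnh5 42.1, 18.3 and 19.4 CPM, both highest in replicate 1. Kcnh3 measured 16.4, 18.1 and 32.6 CPM and Kcnh4 7.72, 6.16 and 30.5 CPM, both highest in replicate 3. Kcnh7, of the branch that also holds the cardiac gene Kcnh2, had a mean of 42.1 ± 10.4 CPM and was highest in replicate 2, whereas Kcnh2 itself, at 10.2 ± 3.25 CPM, was highest in replicate 3. Per kb of exons, Kcnh1 and Kcnh5 were the highest, at 7.43 ± 3.24 and 6.56 ± 3.31 CPM per kb. Per kb of coding sequence Kcnh7 passed Kcnh5, at 11.7 ± 2.89 against 8.98 ± 4.53 CPM per kb. On the exon scale the differences between Kcnh5, Kcnh3, Kcnh4, Kcnh7 and Kcnh2, each against the next, were smaller than their spread.

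**Figure D2:**
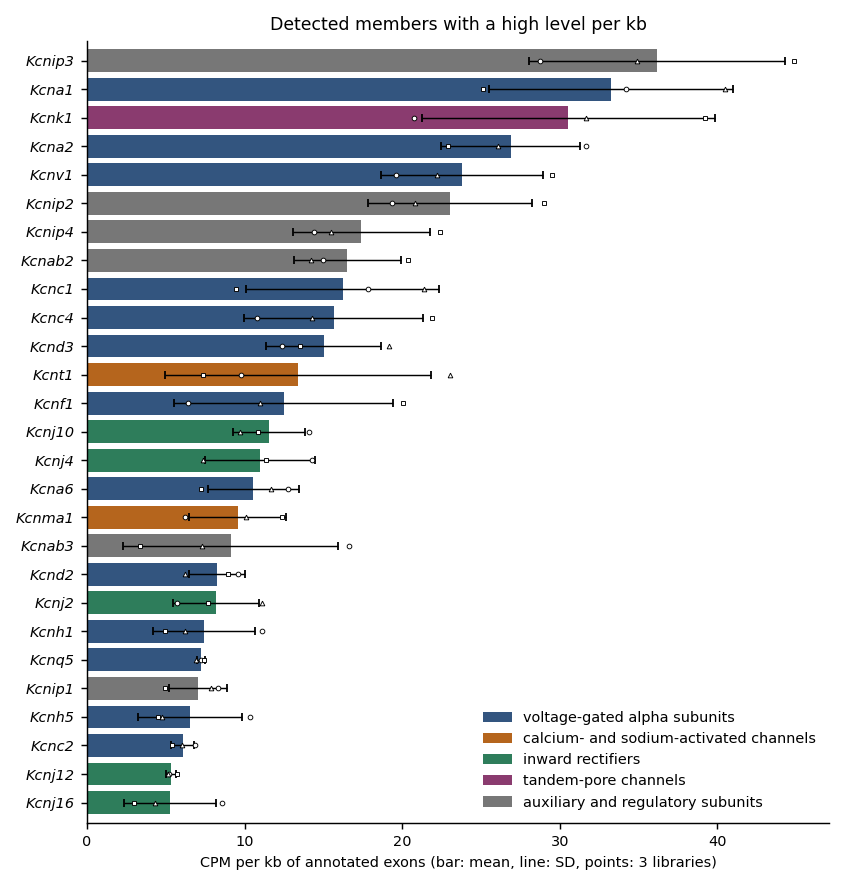
Detected members with a high level per length, in CPM per kb of annotated exons. Bars give the mean, lines the SD over 3 libraries and points the libraries (circle, square and triangle for replicates 1, 2 and 3); colours mark the class. Kcnip3, Kcna1 and Kcnk1 lead, with bars of neighbouring genes within each other's SD.

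By mean level per kb of exons the first 6 members were Kcnip3, Kcna1, Kcnk1, Kcna2, Kcnv1 and Kcnip2. By coding length the first 2 were Kcna2 and Kcnip3. The order at the top therefore rests on how much untranslated exon is annotated. It also differed between libraries: Kcnip3 lay above Kcna1 in 1 of 3, with a log2 difference per kb of 0.12 ± 0.62. Kcna2 (ENSMUSG00000040724.5) lies on chromosome 3 from 107101146 to 107115005 (plus strand) and Kcnip3 (ENSMUSG00000079056.12) on chromosome 2 from 127456498 to 127522094 (minus strand), both in GRCm38.

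Among channels opened by ions inside the cell, the large-conductance calcium-activated channel Kcnma1, which shortens spikes, had the highest mean CPM, with 106, 209.6 and 172 CPM. Its brain-type auxiliary subunit Kcnmb4 measured 1.94, 10.9 and 9.92 CPM. Both were lowest in replicate 1. Kcnmb4 shares 20.8% of its exon bases with Kcnmb4os2 on the opposite strand, and reads of the pair cannot be told apart without the strand setting. Kcnmb2 measured 0.756, 1.70 and 3.35 CPM, and Kcnmb1, the smooth muscle form, and Kcnmb3 had no more than 3 counts in any library. Of the small-conductance channels, which carry the afterhyperpolarization, Kcnn3 measured 36.8, 46.1 and 38.0 CPM, Kcnn2 14.2, 9.84 and 23.8 CPM and Kcnn1 0.540, 5.63 and 4.38 CPM. Kcnn3 was above Kcnn2 in every library, and Kcnn2 minus Kcnn3 per kb was -0.90 ± 0.74 on the log2 scale. The sodium-activated channel Kcnt1 measured 92.8, 70.1 and 219 CPM and its relative Kcnt2 26.6, 29.4 and 34.7 CPM. Replicate 3 held more Kcnt1 than the other libraries, there more than Kcnma1. Per kb Kcnt1 was higher in the mean than Kcnma1, at 13.4 ± 8.44 against 9.57 ± 3.09 CPM per kb. In replicate 2 Kcnt1 was the lower, at 7.38 against 12.3 CPM per kb. Per kb of coding sequence the means were 33.3 ± 20.9 for Kcnt1 and 34.9 ± 11.3 for Kcnma1, so their order depends on length. Kcnt1 exceeded Kcnt2 by 1.42 ± 0.704 per kb on the log2 scale. Kcnu1, known from sperm, measured 6.05, 0.972 and 3.92 CPM.

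Of the inward rectifiers, Kcnj10 had the highest mean CPM, though Kcnj2 was higher in replicate 3. Kcnj10, the main potassium-buffering channel of astrocytes, measured 76.2, 58.7 and 52.5 CPM in replicates 1, 2 and 3, and its partner Kcnj16 33.7, 11.7 and 17.0 CPM. Both were highest in replicate 1, as was the summed level of the 12 astrocyte markers, at 2468, 1466 and 1516 CPM. Kcnj10 was lowest in replicate 3, Kcnj16 and the marker sum in replicate 2. Among the markers, Gja1 was lowest in replicate 1, at 26.4, 38.2 and 30.1 CPM. Slc7a10 was highest in replicate 3, at 7.99, 2.39 and 8.31 CPM. The other markers of that list were highest in replicate 1. Of the strong inward rectifiers of neurons, Kcnj2 measured 31.3, 41.9 and 60.6 CPM and Kcnj4 30.8, 24.4 and 15.8 CPM. Kcnj4 was highest in replicate 1 and lowest in replicate 3, and Kcnj2 was lowest and highest in those libraries. Kcnj12 kept within 14.2 to 15.6 CPM. Kcnj4 minus Kcnj10 per kb was -0.10 ± 0.25 on the log2 scale, smaller than its spread and with this sign in 1 of 3 libraries, but -1.66 ± 0.25 with coding length. Kcnj11, the pore of the ATP-sensitive channel, measured 18.03, 4.46 and 12.7 CPM, and Abcc8, which encodes its neuronal sulfonylurea receptor, 3.56, 10.1 and 20.8 CPM, so the libraries rank differently for pore and receptor. Kcnj8, the vascular form, was at 0, 0 and 1.38 CPM.

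The epithelial members Kcnj13 and Kcne2, both known from the choroid plexus, had their highest levels in replicate 3. Kcnj13 measured 2.86, 0.729 and 13.2 CPM, and Kcne2 had 0 counts in replicates 1 and 2 and 20 counts (2.31 CPM) in replicate 3. Ttr, the choroid plexus gene for transthyretin, measured 1.35, 3.97 and 54.6 CPM and was called as varying between the libraries (edgeR goodness of fit, adjusted p = 0.00172). The whole list of ependymal and choroid plexus markers, with 6 of 10 detected, summed to 83.4, 59.7 and 114 CPM. Its maximum in replicate 3 came from Ttr: without that gene (a choice made after the data were seen) the list summed to 82.1, 55.8 and 59.6 CPM, with its maximum in replicate 1. Kl was highest there, at 30.5 CPM, as was Clic6, at 22.1 CPM, and Prlr was highest in replicate 2, at 36.5 CPM. Folr1 and Otx2 had counts in replicate 3 alone, and Tmem212 had none. Of the exon bases of Kcnj13, 49.1% overlap Gigyf2 on the opposite strand.

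**Figure D3:**
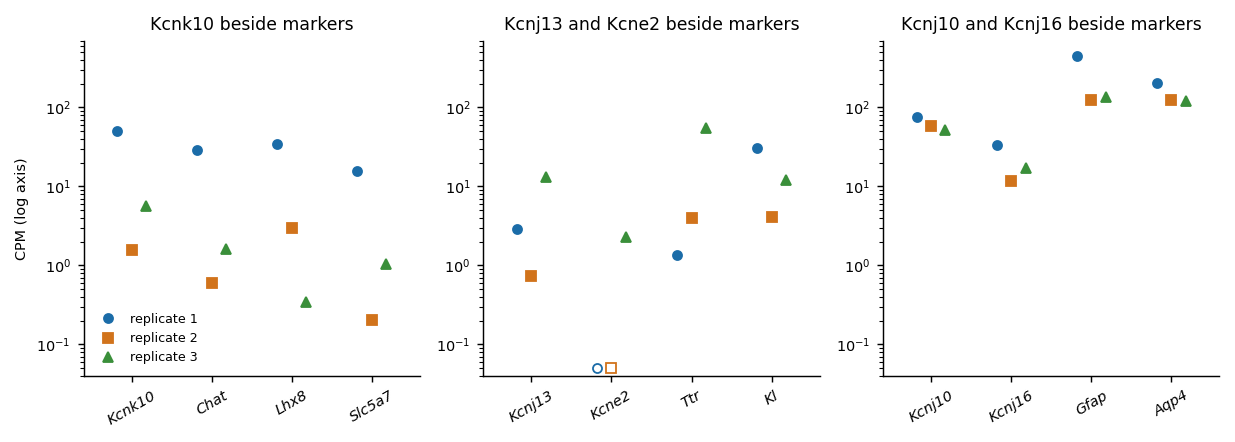
Levels in CPM, on a log axis, of 5 members beside marker genes in replicates 1, 2 and 3; open symbols stand for 0 counts. Kcnk10 and the cholinergic markers Chat, Lhx8 and Slc5a7 are highest in replicate 1, Kcnj13, Kcne2 and Ttr in replicate 3, and Kcnj10, Kcnj16, Gfap and Aqp4 in replicate 1. Kl, drawn beside Ttr, is highest in replicate 1. Among astrocyte markers not drawn, Gja1 was highest in replicate 2 and Slc7a10 in replicate 3. Marker sums of GABAergic neurons, oligodendrocytes, microglia and mural cells, not drawn, were also highest in replicate 1.

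Tandem-pore channels, which give the leak conductance, were led by Kcnk1, at 46.4, 87.7 and 70.7 CPM and 30.5 ± 9.28 CPM per kb. Kcnk2, opened by lipids and membrane stretch, measured 15.5, 28.9 and 23.3 CPM. Both had their lowest level in replicate 1 and their highest in replicate 2, and their difference per kb was 2.71 ± 0.019 on the log2 scale, or 6.55 times. Kcnk9, an acid-sensitive channel, measured 6.10, 19.0 and 37.1 CPM, and its relative Kcnk3 had a mean of 6.94 ± 2.45 CPM. Kcnk13, known from microglia, measured 1.84, 4.37 and 2.77 CPM, while the microglial markers summed to 49.6, 27.5 and 45.5 CPM, with 5 of 12 detected. The other 8 members, Kcnk4, Kcnk5, Kcnk6, Kcnk7, Kcnk12, Kcnk15, Kcnk16 and Kcnk18, were not detected.

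Kcnk10, the relative of Kcnk2 in the lipid- and stretch-sensitive branch, was the only member called as varying between the libraries. It measured 49.7, 1.58 and 5.65 CPM in the 3 replicates, from 920, 39 and 49 counts. The highest library was thus 31.4 times the lowest. In a fit of the 15336 genes that averaged at least 1 CPM, of which 0.209% were called, it was 1 of 68 members tested (edgeR goodness of fit against the trended dispersion, adjusted p = 0.00621). At an unadjusted p below the threshold there were 5 of 68 members (7.35%), against 7.82% of all genes. The call rests on replicate 1: without it the adjusted p was 0.915, and without replicate 2 it was 0.209. Without replicate 3 it was 0.0154. Of the 32 genes called in all, 23 were highest in replicate 1. The cholinergic markers had the same high library: their sum over 8 genes was 135, 10.8 and 16.8 CPM. Chat measured 28.6, 0.608 and 1.62 CPM and Lhx8, a transcription factor of forebrain cholinergic neurons, 34.9, 2.96 and 0.346 CPM, and both were called. Of that list 1 of 8 genes was detected in every library, and Gbx1 had 0 counts in each. Marker sums of other cells were also highest in replicate 1. They were 1169, 614 and 845 CPM for GABAergic neurons and 442, 255 and 266 CPM for oligodendrocytes. Those of astrocytes, microglia, and mural cells and fibroblasts were highest there too. The mural genes Myh11 (47.2, 7.21 and 6.69 CPM) and Acta2 (22.6, 0.648 and 1.27 CPM) had the same high library. Glutamatergic and endothelial sums were highest in replicate 2. The part of any of these cells in the Kcnk10 level was not tested.

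Kcnk10 (ENSMUSG00000033854.10) lies on the minus strand of chromosome 12, from 98429437 to 98578310 in GRCm38, and RefSeq gives it 2 start sites, of which the promoters are shown because this gene carries the call. Each stretch runs from 250 bases before to 50 after the start (RefSeq, GRCm38.p6).
Kcnk10 promoter A, chr12:98578164-98578463, minus strand: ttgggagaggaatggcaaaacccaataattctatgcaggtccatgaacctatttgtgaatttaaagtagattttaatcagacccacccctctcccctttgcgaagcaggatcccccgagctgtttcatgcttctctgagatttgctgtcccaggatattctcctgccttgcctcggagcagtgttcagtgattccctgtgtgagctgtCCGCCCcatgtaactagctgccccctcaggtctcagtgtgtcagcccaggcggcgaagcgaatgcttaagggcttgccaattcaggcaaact
Kcnk10 promoter B, chr12:98575078-98575377, minus strand: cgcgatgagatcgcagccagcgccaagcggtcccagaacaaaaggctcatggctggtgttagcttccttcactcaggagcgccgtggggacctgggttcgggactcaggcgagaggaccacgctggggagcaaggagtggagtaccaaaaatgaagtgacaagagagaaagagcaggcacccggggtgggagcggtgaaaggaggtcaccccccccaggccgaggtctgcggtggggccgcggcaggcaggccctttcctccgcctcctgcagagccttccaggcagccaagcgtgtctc
Both strands were searched for 3 motifs, and capitals mark the only match, which overlaps no other. The first motif, the core promoter box, was searched as TATAAA. For the second, the GC box bound by Sp factors, the letters were GGGCGG. The cyclic AMP response element was searched as TGACGTCA. Promoter A held 1 GC box, read on the other strand, and promoter B none of the 3. Among all 32851 mouse promoters in the table, 13.6%, 35.7% and 1.79% held the core promoter box, the GC box and the response element. Promoter A had 7 and promoter B 18 CG dinucleotides, against a median of 7 in all promoters.

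**Figure D4:**
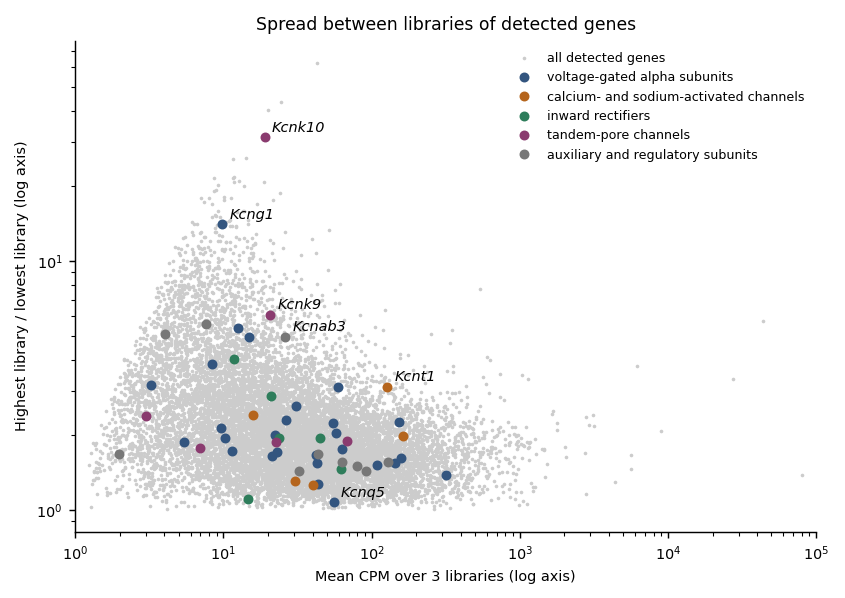
Ratio of the highest to the lowest library against the mean CPM over the libraries (both log axes) for all detected genes (grey) and the detected members (coloured by class). Kcnk10 lies above the other members at 31.4; Kcnq5 has the lowest ratio, 1.07.

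Apart from Kcnk10, no member's spread was called, which does not show that their levels were equal. Among detected members the highest library was on median 1.88 times the lowest, against 1.95 times for all detected genes. It was at least 3 times in 13 of 58 members (22.4%), against 21.1% of detected genes, so this share was near the background. Kcnab3 and Kcnrg, described below, were among those. Highest in replicate 1 were 16 of the 58 detected members, in replicate 2 there were 22 and in replicate 3 there were 20, against 32.6%, 31.1% and 36.3% of detected genes. Lowest in replicate 1 were 26 members (44.8%), against 32.3% of detected genes, in replicate 2 there were 25 (43.1%), against 36.3%, and in replicate 3 there were 7 (12.1%), against 31.4%. Lowest in replicate 3 with TMM scaling were 11 members (18.97%), against 36.99% of detected genes, and with DESeq2 size factors 15 (25.9%), against 38.9%. In 47 of the 58 the highest and the lowest library were the same under all 3 scalings.

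The beta subunits of Kcna channels were all detected. Kcnab2 measured 83.6, 114 and 79.3 CPM, Kcnab1, which speeds inactivation, 38.0, 26.5 and 32.0 CPM, and Kcnab3 47.7, 9.60 and 20.995 CPM. By CPM, Kcnab2 was above the other 2 in each library. Per kb it exceeded Kcnab1 by a log2 difference of 2.11 ± 0.506. Against Kcnab3 the log2 difference per kb was 1.12 ± 1.37, smaller than its spread and with this sign in 2 of 3 libraries. In replicate 1 Kcnab3 was the higher per kb. Kcnab3 varied most, being highest in replicate 1 and lowest in replicate 2. Of the single-span Kcne subunits only Kcne1l was detected, at 1.98 ± 0.526 CPM, while Kcne4 had 3, 0 and 4 counts. Kcnrg, a regulator with a channel assembly domain, measured 1.40, 7.17 and 3.58 CPM. Of the RNAs opposite Kcnmb4, Kcnmb4os2 measured 1.13, 1.62 and 1.27 CPM and Kcnmb4os1 had 0, 0 and 9 counts.

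**Figure D5:**
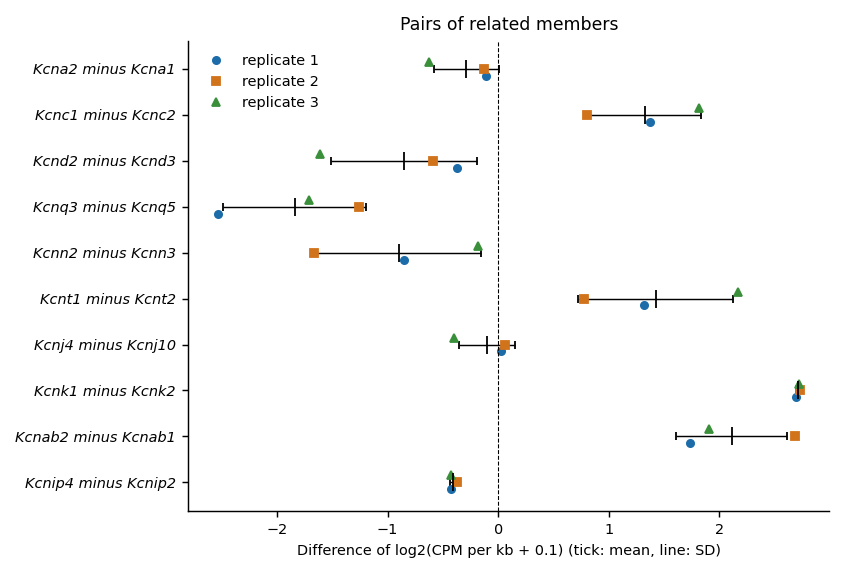
Differences of log2(CPM per kb + 0.1) between related members, for 10 pairs. Symbols give replicates 1, 2 and 3, ticks the mean and lines the SD. In 9 pairs the 3 libraries lie on the same side of 0, and in the pair Kcnj4 and Kcnj10 they do not.

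Of the 10 pairs of related members shown, 9 had the same sign in 3 of 3 libraries. The two-sided exact permutation test over signs has 0.25 as its smallest p with 3 libraries, and each of these 9 pairs reached that value; for Kcnj4 and Kcnj10 the exact p was 1. Sizes depended on length more than signs did. With coding length Kcnk1 minus Kcnk2 was 1.94, Kcnc1 minus Kcnc2 2.11, Kcnd2 minus Kcnd3 -1.70, Kcnn2 minus Kcnn3 -1.60 and Kcnq3 minus Kcnq5 -0.83 on the log2 scale. Converted from log2 to folds, each was over 1.5 times away from its value per kb of exons. Kcnab2 minus Kcnab1 was 1.51 without length correction. Except for Kcna2 and Kcna1 and for Kcnj4 and Kcnj10, the sign of each pair shown also held with coding length, without length correction, with a pseudocount of 1 and without any 1 library.

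Of 30 partner genes of potassium channels that are not named Kcn, 27 were detected and 0 were called as varying by the edgeR fit. Among the highest per kb were genes of calmodulin, the calcium sensor bound to Kcnq and Kcnn channels. Calm2 had 1145 ± 509 and Calm3 329 ± 104 CPM per kb. They were followed by Akap5, the scaffold that ties kinases to Kcnq channels, with 76.6 ± 15.1, and Dlg2, the scaffold that binds Kcna channels, with 35.0 ± 7.40 CPM per kb. The transmembrane partners of Kcnd channels, Dpp6 and Dpp10, had 10.7 ± 1.99 and 4.19 ± 0.541 CPM per kb. Amigo1, a partner of Kcnb channels, had 12.4 ± 3.61 CPM per kb. Like Kcnb2 it was lowest in replicate 2 and highest in replicate 3. Of all detected genes, 36.3% were lowest in replicate 2 and 36.3% were highest in replicate 3. Cntnap2, which holds Kcna channels beside the nodes of Ranvier, measured 79.5, 42.9 and 59.6 CPM. It was lowest in replicate 2, as were Kcna1, Kcna2 and 36.3% of all detected genes. With DESeq2 size factors Kcna2 was lowest in replicate 3. Dlg2 went another way, with 518, 707 and 482 CPM, highest in replicate 2. Not detected were Lrrc26, Lrrc38 and Lrrc52, which encode gamma subunits of the Kcnma1 channel, while a further one, Lrrc55, measured 20.7, 8.83 and 32.8 CPM.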

How the data were processed

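Ribosome-bound RNA of 3 immunopurified libraries was sequenced. Each deposited file holds raw counts of reads for 1 library. The submitters' processing notes name STAR 2.0.0e, HTSeq and the build mm10. Annotation and strand setting were not stated, so genes that overlap on opposite strands cannot be told apart. HTSeq's 5 summary classes and 1 entry naming no gene (0 counts) stayed out of library sizes; 25.6% to 45.3% of entries lay in no feature, 1.26% to 1.98% were ambiguous and 16.5% to 32.7% were not unique.

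Lengths are unions over GENCODE M21 (GRCm38); exon lengths were found for all 93 members and 94.8% of detected genes, coding lengths for 91 members. Variation was tested over all genes with edgeR 4.0.16 in R 4.3.3 (TMM, intercept-only fit, trended dispersion, chi-square goodness of fit on 2 degrees of freedom, Benjamini-Hochberg, threshold 0.05). The procedure was first tested on simulated data, where it missed most of the smaller differences put in, although these were still several-fold. Its share of false calls there lay above the threshold. Pairs used log2(CPM per kb + 0.1), which understates differences of low genes, and an exact sign-flip permutation test. DESeq2 1.42.0 gave alternative scaling and dispersion outliers; tables used Python 3.11.15. Protein features that had been planned were replaced by stretches of coding sequence.

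The members and lists were chosen with earlier results of these data known. Values in every library are given for the 3 members of each subfamily with the highest level per kb, members called as varying, members of pairs, and those with a mean of at least 5 CPM and a 3-fold range. Other members, and partner genes beyond the 5 highest per kb and those not detected, were named after their values were seen. The sources do not tie libraries to single animals, so p-values measure the spread between these libraries, which may in part be technical. No libraries were duplicates (chi-square per degree of freedom 97.6 to 187 between pairs). Results of some genes and pairs are not reported here. Alternatives were other scalings, filters, thresholds, lengths and pseudocounts, and leaving out each replicate.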

Additional observations from a re-analysis of the deposited data

How the results depend on the processing

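Of the alternative values, 107 kept their direction and side of the threshold or their size, 9 moved and 3 reversed. The reversals were in 2 pairs: Kcna2 minus Kcna1 was 1.02 without length correction and 1.01 with coding length, against -0.29, and Kcnj4 minus Kcnj10 ranged from -0.19 to 0.042 with 1 library left out. The count of members called as varying was 1, and it was 3 with a common dispersion, 0 by DESeq2 dispersion outliers and 0 to 1 with 1 library left out (0 without replicate 1 and without replicate 2, each with 4 members at an unadjusted edgeR p below 0.05). Those with a common dispersion included Kcnk10 and Kcnk7, the latter named after its values were seen. For all genes the count of 32 became 780 with a common dispersion, 21 by DESeq2 dispersion outliers and 5 to 22 with 1 library left out. With all libraries the adjusted p of Kcnk10 was 0.00507 to 0.0333. Members took 0.335% of gene counts, and 0.397% without the 3 most abundant genes in the total. Detected members numbered 46 at 5 CPM, 63 at 0.5 CPM, 58 to 64 with 1 library left out and 57 without the 2 opposite-strand RNAs, a setting chosen after seeing the data. The cause of these shifts was not tested. Replicate 3 had the fewest counts and so the highest level that a count of 0 allows. No paired analysis was possible because there was 1 group.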
